A study of Homo sapiens with 12 samples.

Results

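The miRNAs described here are the mature arms of miR-26a, miR-26b and miR-101 listed in small RNA sequencing of differentiated Mono Mac 6 (MM6) cells, a human monocytic cell line. Members were taken by name from the entries typed as mature miRNA, and 4 of the 314 mature miRNA names in the data met the rule, namely miR-26a-5p, miR-26b-5p, miR-26b-3p and miR-101-3p. All 4 were listed both without and with LPS. The other arms of these hairpins were not among the listed entries.

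Wild-type MM6 cells and 5-LOΔ MM6 cells (genotype ALOX-5 -/-, without 5-lipoxygenase) were compared, each without and with lipopolysaccharide (LPS), which monocytes sense through Toll-like receptor 4. The 4 groups comprised 3 libraries each. Every group had been differentiated for 72 h, per the labels, in medium with TGF-β at 1 ng/mL and calcitriol at 50 nM, and the LPS groups received 1 µg/mL LPS for 6 h. Per the paper's methods, the 5-LOΔ cells were transduced with a CRISPR/Cas9 lentivirus, selected with puromycin and expanded from single cells. The labels do not say which clone gave which library. The paper describes no such handling of the wild-type cells, so genotype and handling cannot be told apart. The genotype could not be checked here, because ALOX5 mRNA is outside what small RNA libraries hold.

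A miRNA guides Argonaute to messenger RNAs mainly through its seed, bases 2 to 8 counted from the 5′ end, and lowers the output of the transcripts it pairs with. miR-26 and miR-101 are known for targeting EZH2, the methyltransferase subunit of Polycomb repressive complex 2, which silences genes through histone H3 lysine 27 methylation, and both are often low in tumors. EZH2 itself was not measured in these libraries. miR-26a and miR-26b sit in introns of genes for CTD small phosphatases and are made together with their hosts in many cell types, and miR-101 comes from a pair of unlinked genes.

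The mature sequences are shown because the seeds sort the members into families, and the capitals mark the seed. They were taken from RefSeq, where all 4 members had an entry.
miR-26a-5p: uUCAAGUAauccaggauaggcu
miR-26b-5p: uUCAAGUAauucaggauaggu
miR-26b-3p: cCUGUUCUccauuacuuggcu
miR-101-3p: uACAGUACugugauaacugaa
miR-26a-5p and miR-26b-5p share their seed, so they form 1 seed family. Over the 21 bases they have in common, they are equal at 19 and differ at C11U and C21U, with miR-26a-5p as the reference and positions counted from its 5′ end. The other RefSeq miRNAs of this seed, miR-1297 and miR-4465, were not among the listed entries. No other RefSeq miRNA has the seed of miR-101-3p or of miR-26b-3p, which is the opposite arm of the miR-26b hairpin.

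The 5 hairpins all lie in introns of protein-coding genes on the same strand in the GENCODE annotation of GRCh37, the build of the files. The positions are those of the RefSeq hairpin sequences found in that genome. They equal the annotated genes except for MIR101-2, which GENCODE gives as 4850291 to 4850381. MIR26A1 (chromosome 3, 38010895 to 38010971) lies in CTDSPL, MIR26A2 (chromosome 12, 58218392 to 58218475) in CTDSP2 and MIR26B (chromosome 2, 219267369 to 219267445) in CTDSP1. MIR101-1 (chromosome 1, 65524117 to 65524191) lies in JAK1, the gene for a cytokine receptor kinase, and MIR101-2 (chromosome 9, 4850297 to 4850375) in RCL1. miR-101-3p is identical in both of its hairpins, which differ around it. The hairpins are shown because reads outside the mature arm can tell them apart, and capitals mark miR-101-3p.
MIR101-1: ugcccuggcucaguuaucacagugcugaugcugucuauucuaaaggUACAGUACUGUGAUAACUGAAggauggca
MIR101-2: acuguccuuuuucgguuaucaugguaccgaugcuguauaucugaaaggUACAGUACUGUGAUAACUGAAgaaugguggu
miR-26a-5p likewise has the same sequence in MIR26A1 and MIR26A2, and its mature count does not separate these genes. miR-26b-5p and miR-26b-3p come from opposite sides of the single MIR26B hairpin, in which miR-26b-5p is in capitals here.
MIR26B: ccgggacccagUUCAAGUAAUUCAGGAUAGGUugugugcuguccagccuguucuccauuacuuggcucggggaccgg

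The 3′ UTR of the canonical EZH2 transcript, 263 bases on the reverse strand of chromosome 7, holds the letters complementary to both seeds. The match to the miR-26 seed, TACTTGA, occurs once, and the match to the miR-101-3p seed, GTACTGT, occurs at 2 places that do not overlap it. Each is shown with the bases around it in the sense of the transcript, with the match in capitals.
miR-26 match, chr7:148504477-148504500: ttgaataaagaaTACTTGAacttg
first miR-101-3p match, chr7:148504668-148504691: caggaacctcgaGTACTGTgggca
second miR-101-3p match, chr7:148504613-148504636: tgaatttgcaaaGTACTGTaagaa
Among the first 263 bases of 15794 canonical 3′ UTRs of at least that length, searched on the transcript strand, TACTTGA was in 1.97% and GTACTGT in 1.37%. Both were in 0.0507%, or 8 of them. AGAACAG, the match to the miR-26b-3p seed, was not in the EZH2 3′ UTR and was in 2.55% of the others. These are matches of letters and not measured sites.

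The deposited tables give 1 mean of normalized counts per genotype, 1 table without and 1 with LPS, and no values of single libraries. Levels are therefore the authors' means with a counting standard error (SE) and a 95% counting interval computed here. These hold no spread between libraries, only the error of counting reads. No test between genotypes was made: reads of single libraries were recovered in 1 way in all 4 groups only for miR-26b-3p, whose reads in a group all came from 1 library. Differences are given as log2 ratios of means, and a miRNA with a mean of at least 10 over the compared groups is counted as higher or lower when it is past 1.5-fold. The means of all noncoding RNAs summed to between 9680900 and 12142907 per group, of which mature miRNAs made up 0.934% to 1.09%. Size factors recovered from the low means ran from 0.665 to 1.72 over the 12 libraries. All 8 monocytic and hematopoietic miRNA markers were above 0 in each group. Their summed means were 4569 in wild type and 6704 in the knockout without LPS, and 5151 and 6162 with LPS. Of 20 names of markers of other cell types, 4 or 5 were above 0 in a group, with summed means from 71.6 to 114. Those above 0 in every group were miR-143-3p (35.9 to 58.7 normalized counts) and miR-199a-3p (13.5 to 19.7), known from fibroblasts, and miR-9-5p (16.2 to 42.3), known from neurons. The epithelial miR-200c-3p was above 0 in wild type only, at 1.19 without and 1 with LPS. miR-126-5p and miR-145-5p were above 0 in some groups, at no more than 1.24. miR-122-5p, miR-205-5p and miR-451a, which define hepatocytes, squamous epithelium and erythroid cells, were not above 0 in any group. In bulk RNA, more cells with a miRNA and more of it per cell cannot be told apart.

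miR-101-3p was the member with the largest difference between genotypes among the 3 members that passed the filter. Its mean was 48.8 normalized counts in wild-type cells (counting SE 3.98) and 105 in the knockout (6.1) without LPS. With LPS it was 26.7 (2.99) in the wild type and 57.6 (4.52) in the knockout. The knockout mean was thus 2.16-fold the wild-type mean in both tables. The log2 ratio was 1.11 without LPS, with a counting interval from 0.83 to 1.39, and 1.11 with LPS, from 0.72 to 1.5. The difference between these log2 ratios was within the counting error, with an interval from -0.48 to 0.48. The summed level of the markers of other cell types was 95.8 in wild type and 114 in the knockout without LPS, and 88.7 and 71.6 with LPS. Within that list miR-9-5p had 16.2 in wild type and 42.3 in the knockout without LPS, and 19.7 and 21.2 with LPS, while miR-143-3p had 58.7 and 53.2, and 50.1 and 35.9. The part of these markers in the differences was not tested.

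Reads of single libraries could be recovered for miR-101-3p in wild-type cells, because the mature mean and the means of both precursor entries have to come from the same whole reads. Without LPS the 3 wild-type libraries held 55, 59 and 39 reads, in order of falling size factor, or 44, 58.1 and 44.1 after normalization. With LPS they held 49, 36 and 12 reads, or 28.5, 33.6 and 18. The lowest library without LPS was above the highest with LPS on these scales, which were set separately for the tables. For 5-LOΔ MM6 cells with LPS, 2 sets of reads fit the deposited means. The first, 63, 38 and 64 reads (48.4, 45.5 and 78.8 normalized), lay above all wild-type libraries with LPS. The second, 32, 25 and 96 reads (24.6, 29.9 and 118 normalized), overlapped them and would need many reads that belong to 1 hairpin only. Without LPS, 8 sets fit for the knockout libraries and in 3 of these every knockout library was above every wild-type library. Among these 3, the sets of 88, 107 and 99 reads and of 146, 139 and 43 reads would also need many reads of 1 hairpin only. The set of 117, 123 and 71 reads would need few. So would the overlapping sets of 33, 245 and 23 reads, of 175, 155 and 15 reads and of 259, 33 and 63 reads. Whether the genotypes overlap by library is therefore not settled by the deposited means. The same holds for LPS in the knockout, where the libraries without LPS all lay above those with LPS in 1 of the 16 pairs of read sets.

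**Figure D1:**
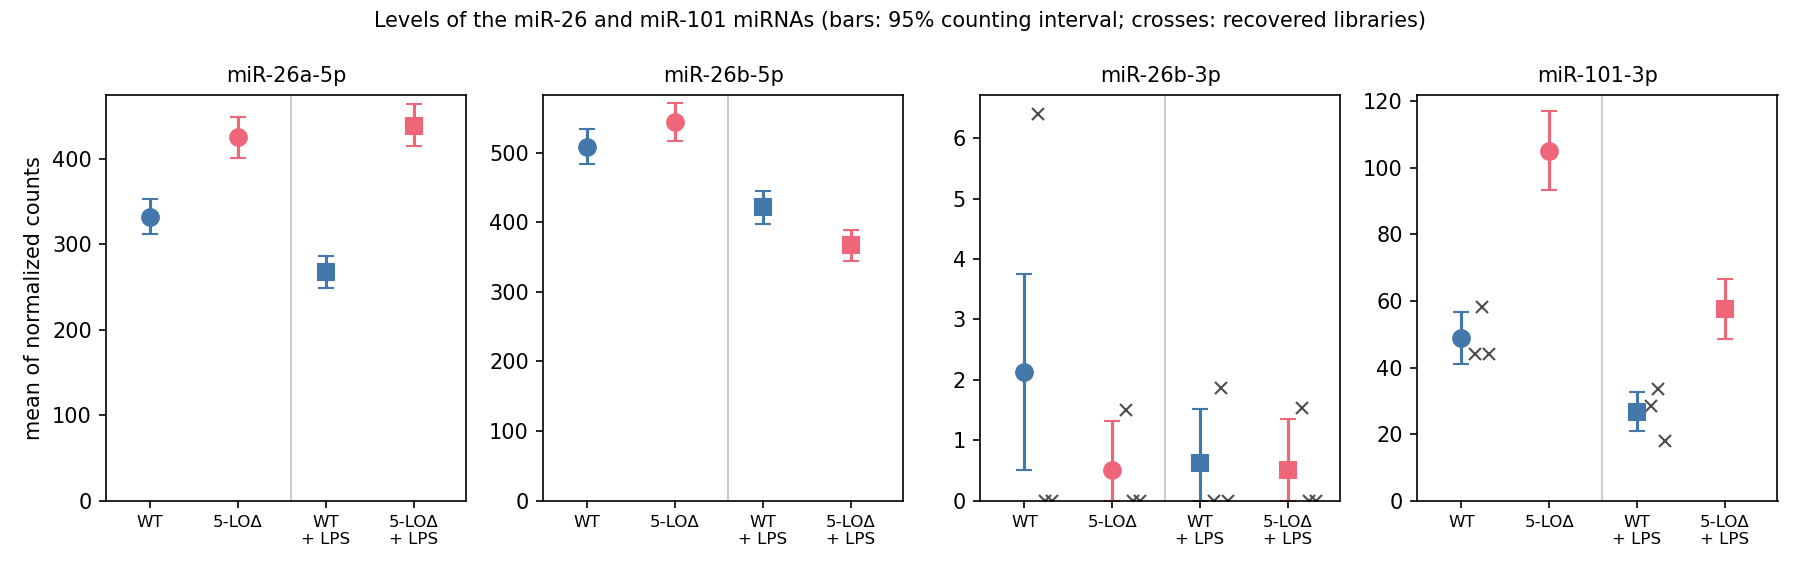
Authors' means of normalized counts (vertical axis) of each member in wild-type (WT, blue) and 5-LOΔ (red) MM6 cells without LPS (circles) and with LPS (squares), bars giving the 95% counting interval. Crosses are single libraries where their reads were recovered in 1 way. miR-101-3p is at 48.8 and 105 without and at 26.7 and 57.6 with LPS, while the miR-26b-3p means each rest on 1 library.

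The background to this difference is wide. Of 111 mature miRNAs that passed the filter without LPS, 23.4% were higher in 5-LOΔ MM6 cells by at least 1.5-fold, and with LPS 18.5% of 108 were. Under the 4 rescalings of the groups, chosen for this share after seeing the data, it was 9.01% to 13.5% without and 6.48% to 13.9% with LPS. Among the members, 1 of the 3 that passed was higher without LPS (miR-101-3p) and 2 of 3 with LPS (miR-26a-5p and miR-101-3p). miR-101-3p held rank 7 of 111 from the highest log2 ratio without LPS and rank 5 of 108 with LPS. The median log2 ratio over these miRNAs was 0.17 without and 0.14 with LPS, so the members are to be read against a table shifted toward the knockout. Setting that median to 0 gave miR-101-3p a log2 ratio of 0.94 without LPS and 0.96 with LPS.

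**Figure D2:**
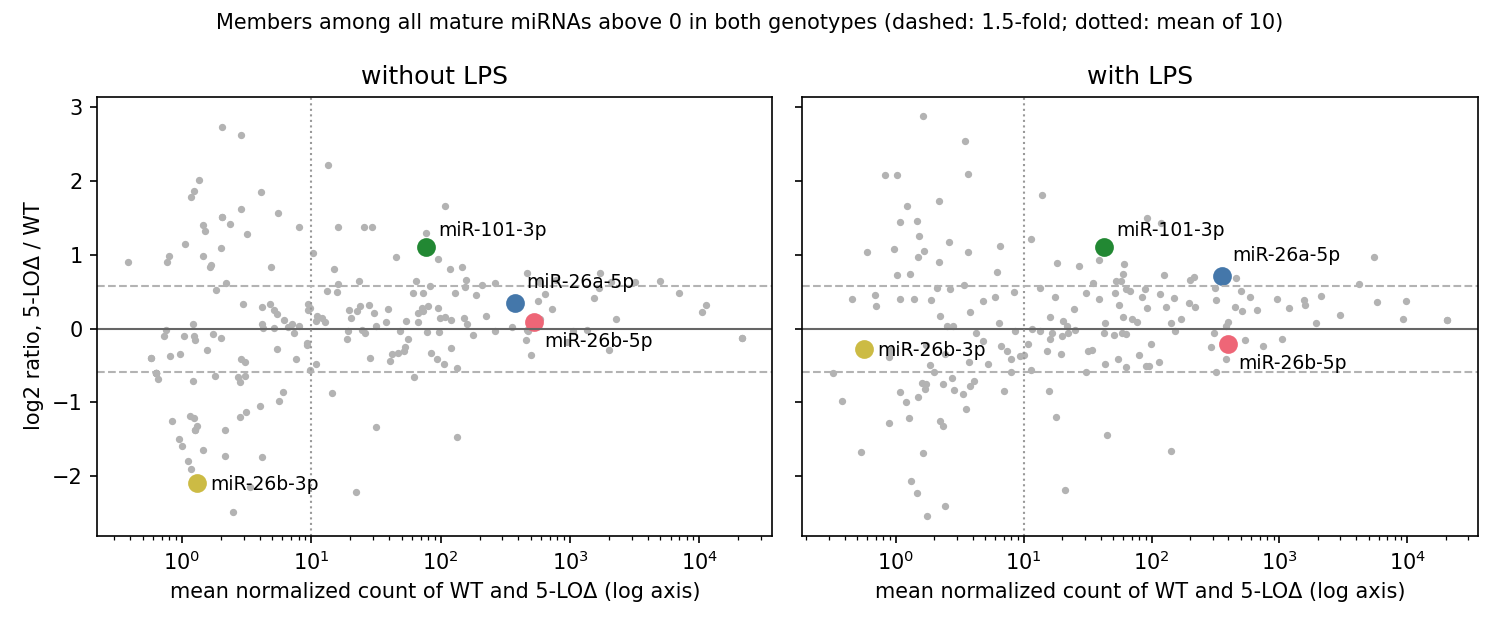
Log2 ratio of 5-LOΔ to WT means (vertical axis) against the mean normalized count of both genotypes (horizontal log axis) for every mature miRNA above 0 in both, without LPS (left) and with LPS (right). Dashed lines mark 1.5-fold and the dotted line the filter at a mean of 10. miR-101-3p lies at 1.11 in both panels, miR-26a-5p and miR-26b-5p lie closer to 0, and miR-26b-3p falls below the filter.

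The miR-26 seed family is far more abundant than miR-101-3p. Without LPS, miR-26a-5p had 332 normalized counts in the wild type (counting SE 10.4) and 425 in the knockout (12.3). The corresponding means of miR-26b-5p were 509 (12.8) and 544 (13.9). With LPS, miR-26a-5p had 267 (9.47) in the wild type and 439 (12.5) in the knockout, and miR-26b-5p had 422 (11.9) and 367 (11.4). These levels put miR-26b-5p at rank 22 of the 242 mature miRNAs above 0 in wild-type cells without LPS, miR-26a-5p at rank 30 and miR-101-3p at rank 75. The order of the members by level was miR-26b-5p, miR-26a-5p, miR-101-3p and miR-26b-3p in 3 of the 4 groups. In 5-LOΔ MM6 cells with LPS, miR-26a-5p stood above miR-26b-5p.

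For miR-26a-5p the log2 ratio of knockout to wild type was 0.35 without LPS (0.23 to 0.47) and 0.72 with LPS (0.59 to 0.85), which is 1.28-fold and 1.64-fold. The value without LPS was outside its counting interval under each of the 4 rescalings, from 0.03 to 0.21. miR-26b-5p had 0.10 without LPS (-0.00 to 0.20) and -0.20 with LPS (-0.32 to -0.08). The direction for miR-26b-5p without LPS depends on the scaling, since it was below 0 under each of the 4 rescalings, from -0.23 to -0.05. miR-26a-5p with LPS was past 1.5-fold as deposited and with equal sums of all noncoding RNAs, but not under the other 3 rescalings, from 0.39 to 0.57. miR-101-3p stayed past 1.5-fold under all 4 rescalings in both tables, with the lowest log2 ratio 0.78 in each.

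The log2 ratio of knockout to wild type was larger with LPS by 0.36 for miR-26a-5p (counting interval 0.19 to 0.54). For miR-26b-5p it was lower with LPS by 0.30, a difference of -0.30 (-0.46 to -0.14). Differences of this size were common. Over the 105 mature miRNAs that passed the filter in both tables the median difference was -0.06 with quartiles at -0.30 and 0.16. A difference at least as high as that of miR-26a-5p was found for 14 of them, itself included, and one at least as low as that of miR-26b-5p for 27. No test of the difference across libraries was possible.

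**Figure D3:**
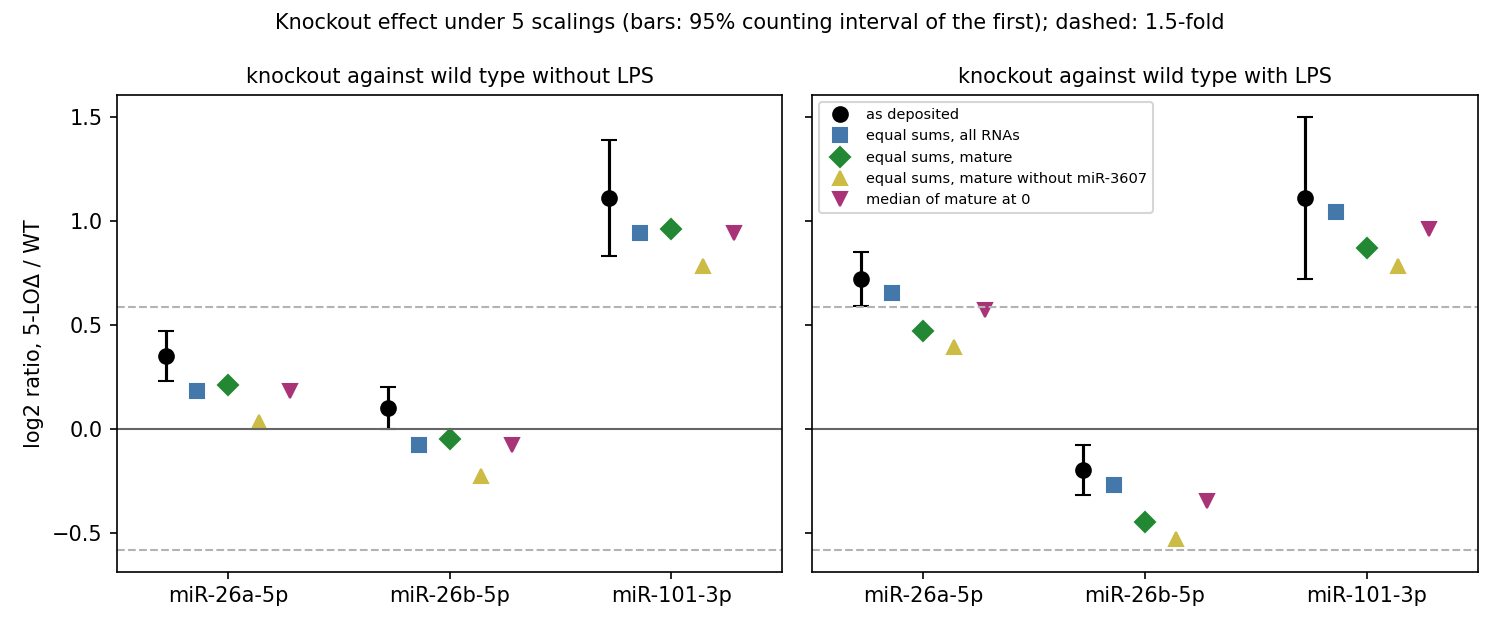
Log2 ratio of 5-LOΔ to WT means (vertical axis) of the 3 members that passed the filter, without LPS (left) and with LPS (right), as deposited (black, bar giving the 95% counting interval) and under 4 rescalings of the groups. Dashed lines mark 1.5-fold. miR-101-3p is above the upper line in every case, and miR-26b-5p without LPS changes sign with the scaling.

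Ratios between members within a group do not depend on the scaling between groups. miR-26a-5p and miR-26b-5p, which share a seed, were at a ratio of 0.653 in the wild type without LPS, against 0.78 in the knockout, which is a log2 change of 0.26 (counting interval 0.10 to 0.41). With LPS the wild type had a ratio of 0.634 and the knockout one of 1.2, for a log2 change of 0.92 (0.74 to 1.09). miR-26a-5p thus made up 39.5% of the pair in wild-type cells and 38.8% with LPS, against 43.8% in 5-LOΔ MM6 cells and 54.5% with LPS. As a seed family the pair differed less. Without LPS the pair amounted to 841 normalized counts in the wild type and 969 in the knockout, and with LPS to 689 and 806. These are log2 ratios of 0.20 (0.13 to 0.28) and 0.23 (0.14 to 0.31), close to the medians over all mature miRNAs.

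The ratio of miR-101-3p to miR-26b-5p without LPS was 0.0958 in the wild type and 0.193 in the knockout, for a log2 change of 1.01 (0.71 to 1.31). With LPS these ratios were 0.0633 and 0.157, and the log2 change was 1.31 (0.91 to 1.72). Against miR-26a-5p the log2 change was 0.76 without LPS (0.45 to 1.06) and 0.39 with LPS (-0.02 to 0.80), the latter within the counting error. miR-101-3p was therefore higher relative to the miR-26 members in the knockout beyond the counting error in 3 of these 4 ratios.

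**Figure D4:**
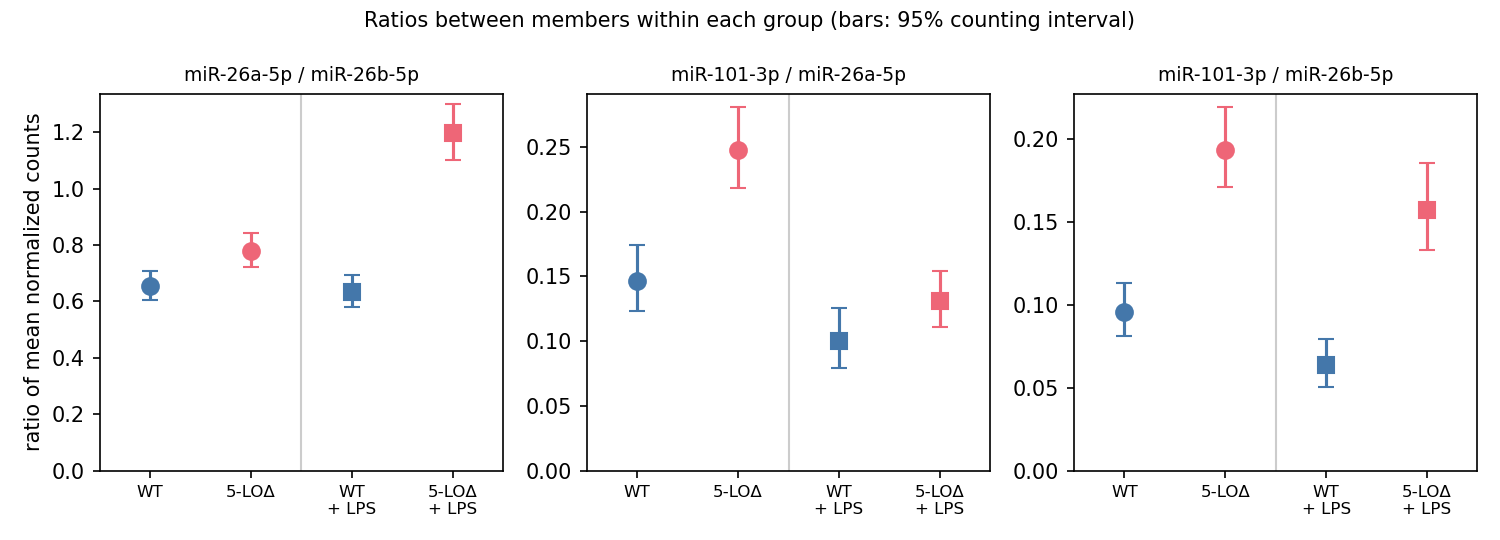
Ratios of the means of miR-26a-5p to miR-26b-5p (left), miR-101-3p to miR-26a-5p (middle) and miR-101-3p to miR-26b-5p (right) in the 4 groups, with 95% counting intervals (WT blue, 5-LOΔ red, circles without and squares with LPS). The ratio of miR-26a-5p to miR-26b-5p reaches 1.2 in 5-LOΔ MM6 cells with LPS and is between 0.634 and 0.78 in the other groups.

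miR-26b-3p, the opposite arm of the miR-26b hairpin, was near the detection limit. All reads of a group came from 1 library, with 8 reads in the wild type and 2 in the knockout without LPS, and 2 in each genotype with LPS. Its means were 2.13 and 0.499 normalized counts without LPS and 0.622 and 0.513 with LPS. Without the wild-type library that held all 8 reads, its wild-type mean without LPS would be 0. The ratio of knockout to wild-type reads at the recovered depths was 0.262 without LPS (exact binomial 95% interval 0.0271 to 1.31) and 1.17 with LPS (0.085 to 16.2), so no difference was detectable at this depth. With LPS the direction turns with the measure, since the knockout mean was 0.824 times the wild-type mean. The 5p arm had 238 times the mean of the 3p arm in wild-type cells and 1091 times in the knockout without LPS, and 678 and 715 times with LPS, ratios that rest on these few reads of the 3p arm.

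To describe the effect of LPS within a genotype, levels had to be set across tables that were normalized separately, and they are given per 1000000 counts of the mature miRNA sum. On this scale miR-101-3p was at 476 in wild-type cells and 287 with LPS, and at 928 in 5-LOΔ MM6 cells and 522 with LPS. It was lower with LPS by 1.66-fold in wild type (log2 ratio -0.73, counting interval -1.12 to -0.34) and by 1.78-fold in the knockout (-0.83, -1.11 to -0.55). In wild type 3.67% of 109 mature miRNAs were lower by at least 1.5-fold, and miR-101-3p held rank 108 of 109 from the highest. That share was 19.2% with no filter and 0% at a mean of at least 50. miR-101-3p, at 48.8 and 26.7 normalized counts in wild type, did not reach this minimum of 50. In the knockout 20.9% of 110 were lower by as much (25.9% with no filter and 15.1% at a mean of at least 50), and miR-101-3p held rank 103. Of the 3 members that passed the filter it was the 1 past 1.5-fold in each genotype, and it stayed past it under the 4 other scalings, with log2 ratios no closer to 0 than -0.60 in wild type and -0.59 in the knockout. The markers of other cell types, set on the deposited scales, summed to 95.8 in wild type and 88.7 with LPS, and to 114 in the knockout and 71.6 with LPS. In the knockout miR-9-5p had 42.3 and, with LPS, 21.2 normalized counts, and miR-143-3p 53.2 and 35.9, and the part of these markers in the LPS differences was not tested.

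miR-26a-5p had 3245 per 1000000 mature counts in wild-type cells and 2867 with LPS (log2 ratio -0.18, -0.31 to -0.05), and 3747 in 5-LOΔ MM6 cells and 3982 with LPS (0.09, -0.03 to 0.20). miR-26b-5p had 4971 in wild-type cells and 4525 with LPS (-0.14, -0.24 to -0.03), and 4801 in 5-LOΔ MM6 cells and 3323 with LPS (-0.53, -0.64 to -0.42). The wild-type values lay near the median over all mature miRNAs, -0.13. In the knockout, where the median was -0.24, the pair parted, and the ratio of miR-26a-5p to miR-26b-5p was higher with LPS by a log2 change of 0.62 (0.46 to 0.78), against -0.04 (-0.21 to 0.13) in wild type. miR-26b-3p, at 2 to 8 reads a group, allowed no statement on LPS.

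**Figure D5:**
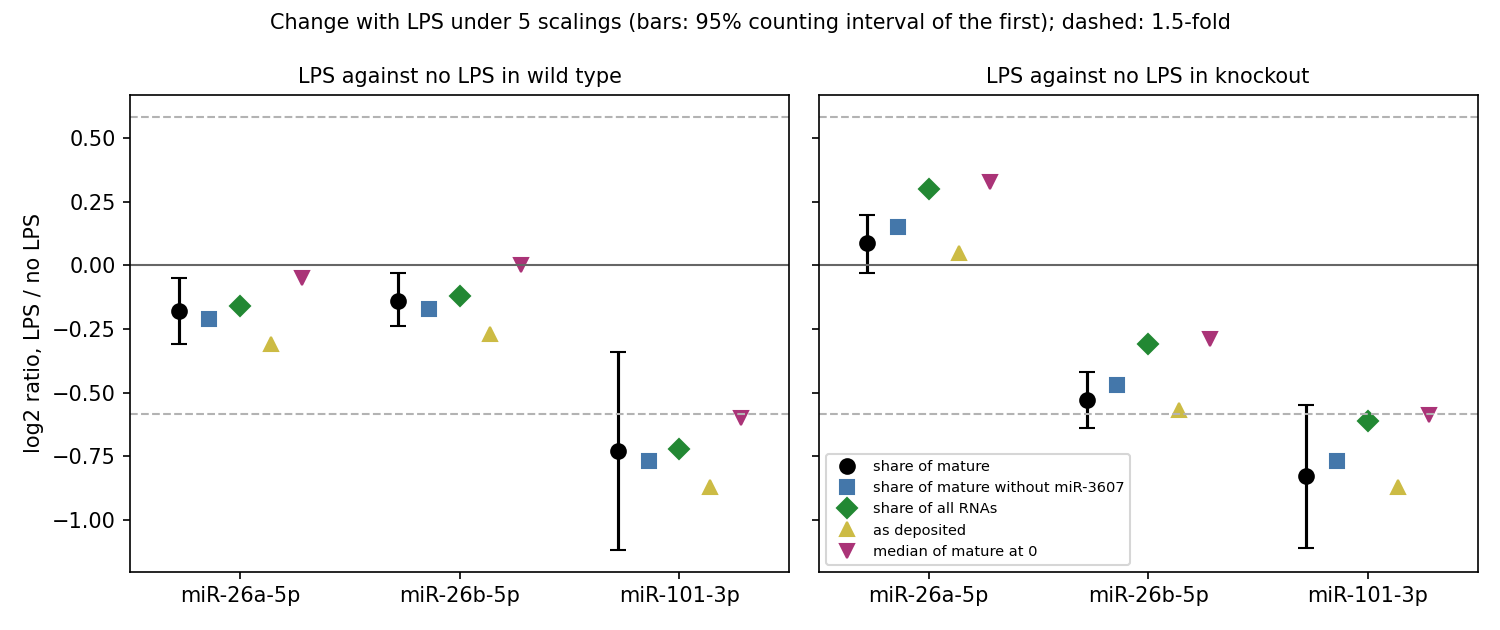
Log2 ratio of LPS to no LPS (vertical axis) of the 3 members that passed the filter in WT (left) and 5-LOΔ (right) MM6 cells, as a share of the mature miRNA sum (black, bar giving the 95% counting interval) and under 4 other scalings of the separately normalized tables. Dashed lines mark 1.5-fold. miR-101-3p is the lowest of the 3 in both panels, at -0.73 and -0.83.

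The precursor entries follow the mature entries and for the most part count the same reads again. The 2 precursor entries of miR-26a were equal at 166 normalized counts each in wild-type cells without LPS, which is the mature mean of 332 divided between both hairpins, so their counts do not show which gene was active. The same held for miR-101 in wild-type cells, with 23.9 normalized counts for each hairpin without and 13.3 with LPS. In 5-LOΔ MM6 cells the MIR101-2 entry exceeded the MIR101-1 entry, at 53.6 against 50.8 without LPS and 30.1 against 27.6 with LPS. These differences of 2.87 and 2.51 normalized counts correspond, if the excess had the same sign in every library, to 9 reads (5, 2 and 2 per library) and 8 reads (5, 0 and 3), against 0 reads of difference in both wild-type groups. The miR-26a entries also differed in 5-LOΔ MM6 cells without LPS, at 212.124 for MIR26A1 and 212.623 for MIR26A2, by 0.499 normalized counts. With LPS the miR-26a entries were equal in each genotype. At this depth the reads that tell the hairpins apart are few, and they were not compared by a test.

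Other miRNAs known to target EZH2 were looked at as a list of 16 names, among them several spellings of the same miRNA, of which 7 were listed and 6 passed the filter. The 6 were miR-25-3p, miR-30d-5p, miR-98-5p and, of let-7, let-7c, let-7b-5p and let-7a-5p. Their log2 ratio of knockout to wild type was above 0 for 6 of 6 in both tables, against 66.7% of all 111 miRNAs without LPS and 62% of 108 with LPS. Without LPS 5 were higher by at least 1.5-fold, against 23.4% of all, and with LPS 3 were, against 18.5%. These counts depend on the scaling. Under the 4 rescalings 2 or 3 of the 6 were higher by as much without LPS, against 9.01% to 13.5% of all. With LPS 2 were, against 6.48% to 13.9%. With equal mature sums without the miR-3607 entries 5 rather than 6 were above 0 in each table, against 36% of all without LPS and 38% with LPS. Under the other rescalings all 6 stayed above 0, against 49.5% to 53.2% of all without LPS and 47.2% to 60.2% with LPS. None of the 6 was lower by at least 1.5-fold under any of these scalings. As deposited, the median was 0.71 without LPS, against 0.17 over all 111 miRNAs, and 0.52 with LPS, against 0.14 over 108. let-7b-5p had the highest values (1.67 and 1.5) and miR-98-5p the lowest (0.26 in both). miR-25-3p had 0.76 and 0.39, and miR-30d-5p 0.66 and 0.43. miR-32-5p, at 1.07 normalized counts in the wild type and 0 in the knockout without LPS, was under the filter. The list was chosen with results of these data known, and 4 of the 6 that passed, miR-98-5p included, belong to the let-7 family.

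Among the other 71 mature miRNAs listed above 0 in all 4 groups with a mean of at least 50 over them, likeness to a member was measured as the distance between the pairs of log2 knockout ratios without and with LPS. The nearest to miR-26b-5p was miR-664b-5p at a distance of 0.02, followed by miR-221-3p at 0.06 and miR-222-3p at 0.09. miR-26a-5p was nearest to miR-423-5p at 0.12, miR-3651 at 0.15 and miR-30c-5p at 0.17. The nearest to miR-101-3p were farther off, miR-146b-5p at 0.39, miR-6087 at 0.44 and miR-30e-3p at 0.49, with log2 ratios without and with LPS of 0.75 and 0.97, 0.81 and 1.44, and 1.29 and 0.65. The choice for miR-101-3p depends on the minimum mean, since at a minimum of 10, a setting chosen after seeing the data, let-7c of the EZH2 list was nearest at 0.22, with log2 ratios of 0.98 and 0.93 and a mean of 42.1 over the 4 groups. These distances rest on 4 means each and describe the values only.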

How the data were processed

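Per the paper's methods, the authors trimmed the adapters of the small RNA library kit, annotated the reads against hg19 and normalized them with omiRas. For the version of omiRas, the mismatches allowed and the kind of scaling, the sources used here give nothing. The authors deposited, as signal columns, a mean over the normalized counts of the 3 libraries for each genotype, in 1 table without and 1 with LPS. The 3 other columns (fold change, p-value and FDR of their own comparison) were not used.

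The members, lists and comparisons were chosen with earlier results of these data known. The text names the members, the listed miRNAs of the EZH2 list, markers and, for each member with a mean of at least 50, its 3 nearest miRNAs.

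Size factors were recovered as 3 steps per group whose whole multiples give every mean of at most 10 within the rounding of its 6 digits (378, 439, 361 and 352 values, all in 1 way). On tables drawn at the real means and depths, 100% of the recovered reads were right in each group. Reads of miR-101-3p were recovered jointly with both precursor entries, assuming that shared reads are divided between the hairpins. On 40 draws, 40 (without LPS) and 28 (with LPS) wild-type read sets came out in 1 way, all of them right. Counting intervals assume Poisson reads without molecular identifiers. They covered the true log2 ratio of 95.5% of 200 changed entries drawn for each table. Samples were grouped by their titles. RefSeq sequences (GRCh38.p14) of the 5 hairpins equal the GRCh37 genome at the positions given. Values were computed in Python 3.11.15 with scipy 1.17.1, numpy 2.4.6 and pandas 2.3.3, and plots were drawn with matplotlib 3.10.9.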

Additional observations from a re-analysis of the deposited data

How the results depend on the processing

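No paired analysis was possible because the deposited tables hold 1 mean per genotype and carry no replicate numbers. Of 199 values recomputed under an alternative, 163 stayed within the counting interval of the value reported (counts and shares within 1.5 times, distances equal) and 36 moved beyond it. No value past 1.5-fold changed sign. For knockout against wild type without LPS, equal sums of all noncoding RNAs, of mature miRNAs and of mature miRNAs without the miR-3607 entries, and a median log2 ratio at 0, gave 0.18, 0.21, 0.03 and 0.18 for miR-26a-5p and -0.08, -0.05, -0.23 and -0.08 for miR-26b-5p. Without the miR-3607 entries miR-101-3p had 0.78. With LPS, the last 3 of these settings gave 0.47, 0.39 and 0.57 for miR-26a-5p and -0.45, -0.53 and -0.35 for miR-26b-5p. The miR-3607 entries held 35.8% to 43.4% of the mature sums, and the cause of the shifts was not tested. For LPS against no LPS in wild type, the means as deposited gave -0.31 for miR-26a-5p and -0.27 for miR-26b-5p, and a median at 0 gave -0.00 for miR-26b-5p. In the knockout, the share of all noncoding RNAs and a median at 0 gave 0.30 and 0.33 for miR-26a-5p and -0.31 and -0.29 for miR-26b-5p. The share of mature miRNAs lower with LPS in wild type by at least 1.5-fold was 19.2% with no filter and 0% at a minimum mean of 50. miR-101-3p did not reach that minimum in wild type. Leaving out each recovered wild-type library in turn gave miR-101-3p log2 ratios of knockout to wild type from 1.04 to 1.26 without LPS and from 0.89 to 1.31 with LPS, and for miR-26b-3p, with knockout libraries also left out, from -2.68 to -1.51 and from -0.86 to 0.31. Pseudocounts of 0.1, 1 and 10 and the precursor entries moved none of the members beyond its counting interval. Knockout libraries of miR-101-3p, and all libraries of miR-26a-5p and miR-26b-5p, could not be left out in turn because their reads were not recovered in 1 way. Rescaling moved the count of the EZH2 list higher by 1.5-fold without LPS from 5 to 2 or 3. The share of all mature miRNAs higher by as much moved from 23.4% to between 9.01% and 13.5%. The distance from miR-101-3p to its nearest miRNA was 0.22 at a minimum mean of 10, against 0.39 at 50. Leaving out the library that held all miR-26b-3p reads of a group gives a mean of 0 and no ratio.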
